A study of Mus musculus with 3 samples.

Results

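The 34 genes described here carry glucose into the cell, break it down to pyruvate and lactate, export the lactate, sense oxygen, or are known targets of low oxygen and stress. They were chosen as a list of symbols with earlier results of these data known, so counts set beside all genes are descriptions. They are 34 of the 32245 gene symbols in the count matrices, and all 34 were found in all 3 libraries. By role they are 4 transporters, 15 glycolytic enzymes, 2 glycolysis regulators, 2 lactate dehydrogenase subunits, 2 pyruvate dehydrogenase kinases, 4 oxygen-sensing genes and 5 hypoxia and stress targets. Every cell uses glycolysis, which converts glucose to pyruvate in the cytosol, and lactate dehydrogenase turns pyruvate into lactate when it is not sent to the mitochondria. Prolyl hydroxylases of the Egln family use oxygen to mark the HIF alpha subunits, Hif1a and Epas1, for destruction, so that HIF accumulates at low oxygen largely through protein stability and binds DNA at a short core motif near genes of glycolysis. The synovium lines the joint cavity with fibroblasts and macrophages over a vascularised layer that merges with the infrapatellar fat pad, and inflamed synovium is known as a tissue of low oxygen and high lactate.

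The cells came from knee synovium and fat pad of wild-type mice and were read as droplet-based 3' single-cell RNA libraries, in which each unique molecular identifier (UMI) counts 1 captured transcript. The control mice were 2 months old and had no operation named in the labels, and at 2 months of age the other mice had DMM surgery, which destabilises the medial meniscus and serves as a model of osteoarthritis after injury. Tissue was taken 1 week or 2 months after the operation, so the 2-month mice were also older than the controls. Each group was 1 library, pooled from 5 to 10 mice, so no test between groups was possible, age and operation cannot be told apart at 2 months, and intervals in parentheses are exact 95% intervals for counting error that leave out the spread between mice.

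Levels were compared inside 5 classes of barcodes gated on 1 or 2 marker genes. Fibroblasts carried Pdgfra without Ptprc or Cdh5 (3781, 4748 and 5317 barcodes in the control, 1-week and 2-month libraries), and endothelium carried Cdh5 without Ptprc (1270, 1784 and 1157). Mural cells, the pericytes and smooth muscle around vessels, carried Notch3 without the other 3 genes (694, 711 and 423), macrophages carried at least 3 C1qa UMIs (1101, 1969 and 894) and neutrophils at least 2 Retnlg UMIs (93, 442 and 1141). A level is the summed UMIs of a gene in a class per 1000000 UMIs of that class (CPM), and a member counts as higher or lower at a CPM ratio of at least 1.5-fold with at least 50 UMIs in the 2 sums. The kept libraries held 95152398, 174607108 and 155380425 UMIs, with a median of 1.79%, 3.52% and 3.41% mitochondrial UMIs per barcode. All 8 markers listed for a class were detected in its own gate in each library. Of 20 genes of dissociation stress, 14 were lower at 1 week in fibroblasts, 17 in endothelium, 8 in mural cells, 16 in macrophages and 13 in neutrophils. In mural cells 1 was higher. Over all genes the lower shares in these classes were 18.2%, 15.6%, 22.1%, 19.4% and 12.0%. At 2 months 10 of the 20 were lower in fibroblasts, 6 in endothelium, 0 in mural cells, 8 in macrophages and 5 in neutrophils. Over all genes these lower shares were 9.61%, 6.97%, 10.1%, 9.15% and 8.63%. Higher at 2 months were 5 in mural cells, 1 in macrophages and 1 in neutrophils, against 12.5%, 10.7% and 28.4% of all genes. The part of the dissociation stress genes in the results was not tested. Skeletal muscle, a glycolytic tissue beside the joint, left little RNA: 3 to 7 of its 8 markers were detected, their summed level was 3.53 to 13.7 CPM over classes and libraries, and its myosin Myh4 was at 0 in each.

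The windows around 4 start sites are shown because HIF is known to act on such promoters and these genes differed from the control in both directions. Each holds 250 bases before and 50 bases after the start of a RefSeq transcript (GRCm38.p6), on the strand of the gene, and capitals mark the core motif ACGTG or GCGTG read on either strand. Slc16a3 (chr11:120948817-120949116, plus strand), Pgk1 (chrX:106186850-106187149, plus strand) and Ddit4 (chr10:59951721-59952020, minus strand) were higher in fibroblasts at 1 week, and Pfkp (chr13:6648722-6649021, minus strand) was lower.
Slc16a3: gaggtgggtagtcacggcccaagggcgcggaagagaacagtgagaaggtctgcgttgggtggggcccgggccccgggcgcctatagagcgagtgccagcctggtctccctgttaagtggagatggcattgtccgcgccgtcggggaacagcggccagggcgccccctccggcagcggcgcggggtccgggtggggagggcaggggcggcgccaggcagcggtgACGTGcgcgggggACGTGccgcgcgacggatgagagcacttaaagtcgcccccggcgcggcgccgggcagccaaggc
Pgk1: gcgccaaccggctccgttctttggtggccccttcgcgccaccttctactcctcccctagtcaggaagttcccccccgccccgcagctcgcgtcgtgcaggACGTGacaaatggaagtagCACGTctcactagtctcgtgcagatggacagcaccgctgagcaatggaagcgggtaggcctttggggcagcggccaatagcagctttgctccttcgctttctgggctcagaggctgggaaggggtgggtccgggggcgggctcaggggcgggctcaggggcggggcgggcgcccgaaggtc
Ddit4: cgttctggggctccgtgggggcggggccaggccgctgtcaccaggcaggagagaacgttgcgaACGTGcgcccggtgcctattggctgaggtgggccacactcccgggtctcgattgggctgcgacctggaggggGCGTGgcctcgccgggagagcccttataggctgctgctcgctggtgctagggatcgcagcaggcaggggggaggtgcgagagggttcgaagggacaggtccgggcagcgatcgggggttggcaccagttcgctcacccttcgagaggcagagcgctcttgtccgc
Pfkp: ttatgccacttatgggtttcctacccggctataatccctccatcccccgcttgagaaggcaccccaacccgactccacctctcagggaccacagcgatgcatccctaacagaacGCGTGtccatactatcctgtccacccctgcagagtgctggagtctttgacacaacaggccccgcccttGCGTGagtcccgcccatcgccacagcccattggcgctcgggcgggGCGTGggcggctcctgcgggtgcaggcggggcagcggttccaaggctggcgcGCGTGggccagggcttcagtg
The first 3 windows hold 2 cores each, and the Pfkp window holds 4, all of the form GCGTG. Of the 34 members, 30 had a window and 27 of these had at least 1 core, in 35 of 43 member windows or 81.4%. Over all 32851 RefSeq windows of this length, 43.8% held either form, 19.6% held ACGTG and 32.4% held GCGTG. A match of these letters is a description and was found both in members that were higher and in members that were lower. In the GENCODE annotation of GRCm38 all 34 are protein-coding, with Hif1a on chromosome 12 from 73901375 to 73947530 on the plus strand and Epas1 on chromosome 17 from 86753700 to 86833410 on the plus strand.

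Fibroblasts of the 1-week library carried more RNA for the enzymes Pgk1, Pgam1, Eno1, Pkm and Pfkl, for the lactate carriers Slc16a3 and Slc16a1 and for Hif1a, and less for Epas1, Pfkp, Ndrg1, Pdk4 and Hk1. Of 33 members with enough UMIs, 14 were higher and 5 lower than in the control, against 20.1% of all genes higher and 18.2% lower. At 2 months 7 were higher and 3 lower, against 11.7% and 9.61% of all genes. Their median log2 CPM ratio was 0.53 at 1 week and 0.06 at 2 months, beside 0.02 and 0.02 over all genes. The remaining member, the aldolase gene Aldoc, gave 2, 32 and 9 UMIs. It lacked the UMI minimum and was not assessed. Of the 33 assessed, 12 stayed under 1.5-fold in both comparisons, with ratios from 0.819 to 1.49 at 1 week and from 0.795 to 1.18 at 2 months. The plot of levels in fibroblasts shows all 34.

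**Figure D1:**
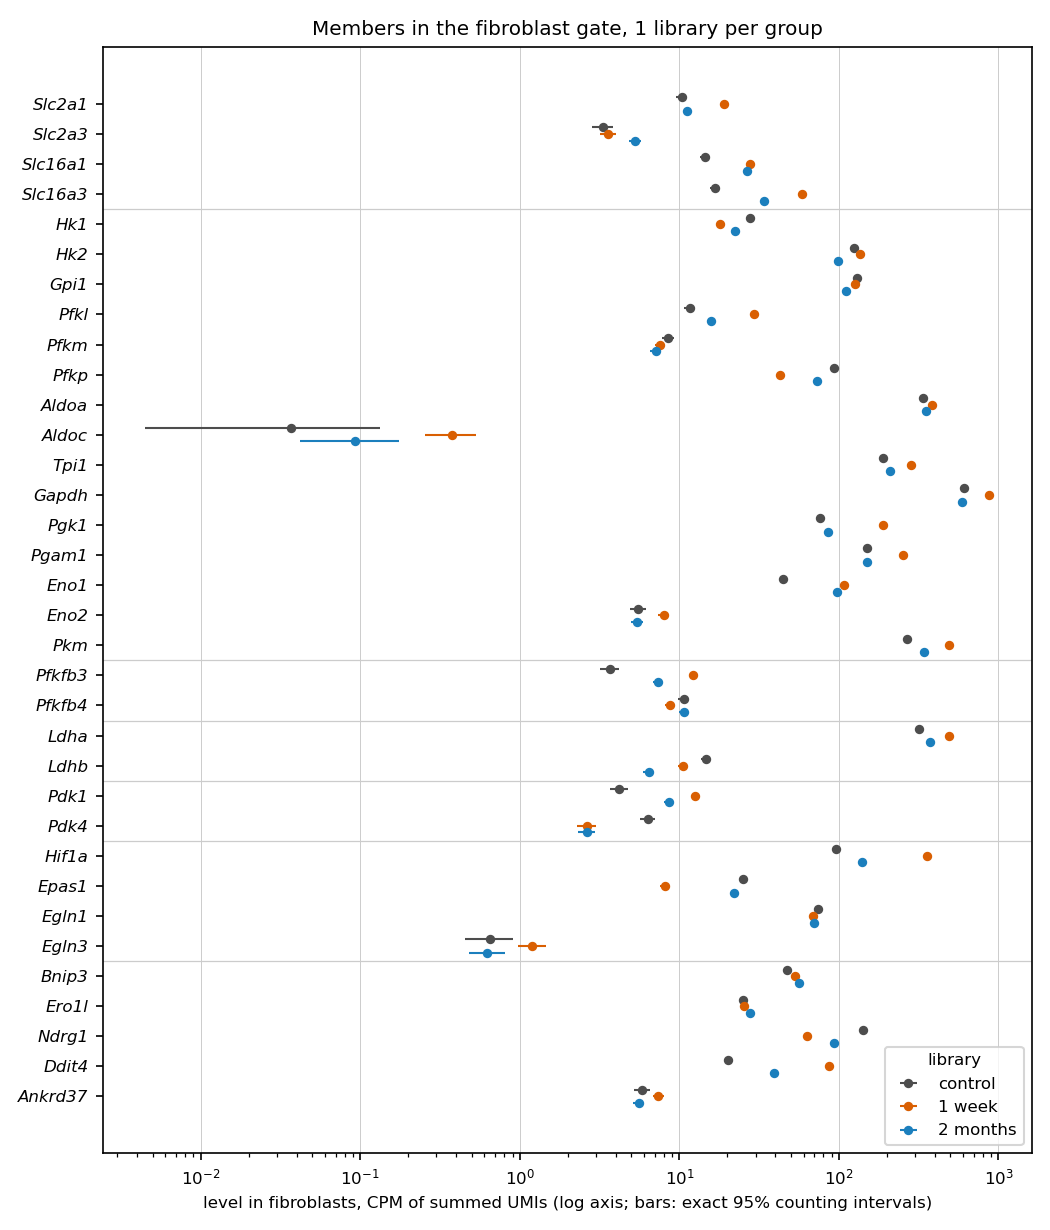
Level of each member in fibroblasts, in CPM on a log axis, with 1 point per library (control, 1 week, 2 months), exact 95% counting intervals as bars and genes ordered by role between grey lines. At 1 week Hif1a reached 358 CPM and Slc16a3 58.8 CPM, while Epas1 stood at 8.16 CPM, below both other libraries.

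Among the transporters, Slc16a3, which exports lactate, was measured in fibroblasts at 16.7, 58.8 and 33.8 CPM in the control, 1-week and 2-month libraries. It was 3.53-fold higher (3.29 to 3.79) at 1 week and 2.03-fold higher (1.88 to 2.18) at 2 months. The related monocarboxylate carrier Slc16a1, which moves lactate in either direction, stood at 14.4, 27.6 and 26.4 CPM. It was 1.92-fold higher (1.77 to 2.08) and 1.83-fold higher (1.69 to 1.99), so both operated libraries lay above the control for both carriers. Slc2a1, the basal glucose transporter, was at 10.3, 19.0 and 11.2 CPM and 1.84-fold higher (1.67 to 2.03) at 1 week, with a 2-month ratio of 1.08 (0.978 to 1.20). Slc2a3, a high-affinity glucose transporter, was at 3.31, 3.58 and 5.31 CPM and was 1.60-fold higher (1.35 to 1.91) at 2 months, with a 1-week ratio of 1.08 (0.896 to 1.31). The neutrophil gate held Slc2a3 at 119, 122 and 115 CPM, and the 8 neutrophil markers together stood in fibroblasts at 72.7, 98.1 and 211 CPM. Their part in the fibroblast value of Slc2a3 was not tested.

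The 15 enzyme genes of glycolysis summed to 2071, 2944 and 2154 CPM in fibroblasts, a ratio of 1.42 (1.41 to 1.43) at 1 week and 1.04 (1.03 to 1.05) at 2 months. At 1 week 5 of the 14 measured enzymes were at least 1.5-fold higher and 2 lower. Of these 5, Pgk1, Pgam1, Eno1 and Pkm act after the aldolase step, in the part of the pathway that yields ATP. Pgk1, the phosphoglycerate kinase, was at 76.0, 188 and 85.8 CPM and 2.48-fold higher (2.39 to 2.56) at 1 week. Pgam1, the phosphoglycerate mutase, was at 149, 254 and 149 CPM and 1.70-fold higher (1.66 to 1.75). Pkm, the pyruvate kinase of most tissues, was at 266, 487 and 341 CPM and 1.83-fold higher (1.79 to 1.86). For these 3 genes the 2-month level lay nearer to the control, with ratios of 1.13, 1.00 and 1.28. Eno1, the enolase, differed from them in staying apart from the control at both times. Its level was 44.3, 108 and 96.9 CPM, 2.44-fold higher (2.33 to 2.55) at 1 week and 2.18-fold higher (2.09 to 2.29) at 2 months. The near-identical copy Eno1b was at 1.61, 1.71 and 1.17 CPM, and how reads were split between the copies is uncertain. Gapdh likewise has many processed pseudogenes that can share its reads.

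Pfkl, a subunit of phosphofructokinase, was at 11.6, 29.5 and 15.7 CPM and 2.54-fold higher (2.33 to 2.78) at 1 week. Its paralogue Pfkp was at 92.5, 42.6 and 73.0 CPM and 2.17-fold lower (2.08 to 2.27). Hexokinase Hk1, the first enzyme of the pathway, was at 27.9, 18.1 and 22.5 CPM and 1.54-fold lower (1.44 to 1.66). It passed 1.5-fold under 9 of 13 alternatives (0.618 to 0.691). The others of the 15, namely Gapdh, Tpi1, Aldoa, Hk2, Gpi1, Pfkm and Eno2, stayed under 1.5-fold in both comparisons. Nearest below the threshold were Tpi1, at a 1-week ratio of 1.49 (1.45 to 1.52), Eno2, at 1.45 (1.27 to 1.67), and Gapdh, at 1.44 (1.42 to 1.46).

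Pfkfb3 makes the activator of phosphofructokinase, and its level in fibroblasts was 3.67, 12.2 and 7.38 CPM. It was 3.34-fold higher (2.87 to 3.91) at 1 week and 2.01-fold higher (1.72 to 2.37) at 2 months. Its relative Pfkfb4 stayed within 1.5-fold, at 10.6, 8.72 and 10.6 CPM. Ldha, the lactate dehydrogenase subunit that favours lactate, was at 319, 489 and 374 CPM and 1.53-fold higher (1.51 to 1.56) at 1 week, past 1.5-fold under 10 of 13 alternatives (1.41 to 1.62). Ldhb, the subunit that favours pyruvate, was at 14.8, 10.5 and 6.41 CPM and 2.30-fold lower (2.07 to 2.56) at 2 months. The ratio of Ldha to Ldhb UMIs was 21.6, 46.7 and 58.3, higher in both operated libraries than in the control.

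The 2 members among the kinases that shut the mitochondrial pyruvate dehydrogenase differed in opposite directions. Pdk1, a known HIF target, was at 4.18, 12.6 and 8.63 CPM, 3.01-fold higher (2.61 to 3.49) at 1 week and 2.06-fold higher (1.78 to 2.40) at 2 months. Pdk4, which is known for its induction by fasting and glucocorticoids, was at 6.33, 2.62 and 2.63 CPM, 2.41-fold lower (2.03 to 2.87) and 2.41-fold lower (2.04 to 2.84). Of 12 genes of the glucocorticoid response and clock output, 1 was higher and 6 lower in the same fibroblasts at 1 week, and 3 were higher and 1 lower at 2 months. Their part in the level of Pdk4 was not tested.

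Of the oxygen-sensing genes, Hif1a stood in fibroblasts at 96.2, 358 and 140.2 CPM, 3.72-fold higher (3.62 to 3.84) at 1 week, with a 2-month ratio of 1.46 (1.41 to 1.5). Epas1, which encodes HIF2 alpha, stood at 25.1, 8.16 and 22 CPM and was 3.08-fold lower (2.81 to 3.38) at 1 week, with a 2-month ratio of 0.877 (0.819 to 0.940). The ratio of Epas1 to Hif1a UMIs was 0.261, 0.0228 and 0.157, lowest at 1 week. The hydroxylase Egln1 stayed within 1.5-fold at 73.5, 68.5 and 70.1 CPM. Egln3, a hydroxylase known to be induced by HIF, rested on 35, 102 and 61 UMIs and was 1.84-fold higher (1.24 to 2.79) at 1 week. It passed 1.5-fold under 10 of the 13 alternatives, with ratios from 1.11 to 2.09.

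Of the 5 hypoxia and stress targets, 1 was higher and 1 lower in fibroblasts at 1 week. Ddit4, an inhibitor of mTORC1 signalling that answers to hypoxia, glucocorticoids and other stress, was at 20.3, 86.6 and 39.1 CPM. It was 4.26-fold higher (4.0 to 4.54) at 1 week and 1.92-fold higher (1.80 to 2.06) at 2 months. Ndrg1, also a known hypoxia target, was at 142, 63.3 and 93.7 CPM, 2.25-fold lower (2.17 to 2.33) and 1.52-fold lower (1.48 to 1.57), the latter past 1.5-fold under 10 of 13 alternatives (0.640 to 0.688). The mitophagy receptor Bnip3, the ER oxidase Ero1l and Ankrd37 stayed within 1.5-fold, with 1-week ratios of 1.13 (1.07 to 1.18), 1.02 (0.951 to 1.09) and 1.26 (1.10 to 1.45). Beyond the members, 9 of 21 measured genes on a list of 22 other hypoxia targets and regulators were higher at 1 week and 2 were lower. The largest ratios on it were for Car9, a carbonic anhydrase, with 0.0555 CPM in the control and 2.54 CPM at 1 week, a ratio of 45.7 (15.4 to 224), Car12, another one, at 9.37-fold higher (6.77 to 13.3), Plod2, a collagen lysyl hydroxylase, at 4.37-fold higher (4.22 to 4.52), and the vasodilator Adm, at 4.64-fold lower (4.33 to 4.99). Car9 rested on 3 UMIs in the control. At 2 months 2 of 20 were higher, Plod2 by 2.61-fold (2.52 to 2.71) and Higd1a by 1.60-fold (1.56 to 1.64), and none lower.

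Few genes of the neighbouring pathways passed 1.5-fold in fibroblasts. Of 18 genes listed for the tricarboxylic acid cycle, which burns pyruvate in mitochondria, 1 was higher at each time. These were Idh2 at 1 week and Ogdh at 2 months, and none was lower. Of 8 pentose phosphate genes, Pgls was higher and Rpia lower at 1 week and none passed 1.5-fold at 2 months. On a list of 21 other genes of glycolysis and pyruvate entry, 3 of 17 measured were higher at 1 week and 1 lower. The lower one was Slc2a4, the insulin-responsive glucose transporter, with 4.57 CPM in the control and 0.457 CPM at 1 week, 10.0-fold lower (7.12 to 14.4). Among 8 glycogen and gluconeogenesis genes, the glycogen phosphorylase Pygl was 1.99-fold lower (1.89 to 2.10) at 1 week and 1.80-fold lower (1.71 to 1.89) at 2 months.

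Inside the fibroblasts, barcodes were also grouped by UMIs of single marker genes. The groups overlap and are not cell types, since free RNA can put a marker UMI in any barcode, and their shares differed widely: Acan or Col11a1 marked 0.714%, 68.5% and 10.4% of fibroblasts in the control, 1-week and 2-month libraries, and the lining gene Clic5 marked 43.6%, 7.92% and 33.6%. In macrophages, where such UMIs serve as background, Acan or Col11a1 marked 0.545%, 18.9% and 2.35% and Clic5 32.2%, 2.69% and 9.17%, at median depths of 9617, 10117 and 11750 UMIs against 13153, 16492 and 16085 in fibroblasts. Acta2 at 5 or more marked 2.91%, 14.7% and 3.03% of fibroblasts and 2.91%, 2.69% and 1.57% of macrophages, so the control share did not exceed this background. Clic5 marked more of the endothelium than of the fibroblasts, at 62.0%, 15.5% and 49.4%. Pi16 or Dpp4 marked 35.6%, 11.6% and 32.9% of fibroblasts, 9.63%, 5.28% and 14.4% of macrophages and 36.6%, 32.1% and 52.6% of neutrophils. These 2 gates are therefore not particular to fibroblasts. The 6 chondrocyte markers summed to 1.54, 417 and 35.3 CPM in fibroblasts, 3.6, 156 and 5.76 CPM in endothelium, 5.63, 112 and 34.9 CPM in mural cells, 2.88, 67.3 and 5.09 CPM in macrophages and 0, 232 and 77.3 CPM in neutrophils. The part of free RNA in these groups was not tested. The summed enzymes at 1 week were 3812 (3782 to 3842) CPM with Acta2 at 5 or more, 3746 (3719 to 3774) in dividing barcodes and 2969.6 (2956 to 2983) with Acan or Col11a1. Barcodes with none of the markers had 2621 (2587 to 2655) CPM at 1 week and 1952 (1929 to 1975) CPM in the control. Thus each gate of the 1-week library lay above every control gate, which ranged from 1952 to 2379.6 CPM. Dividing barcodes made up 2.64%, 17.7% and 3.82% of fibroblasts. Without them the 1-week ratio of the summed enzymes was 1.31, and without barcodes carrying Acan, Col11a1 or Mmp13 it was 1.39.

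**Figure D2:**
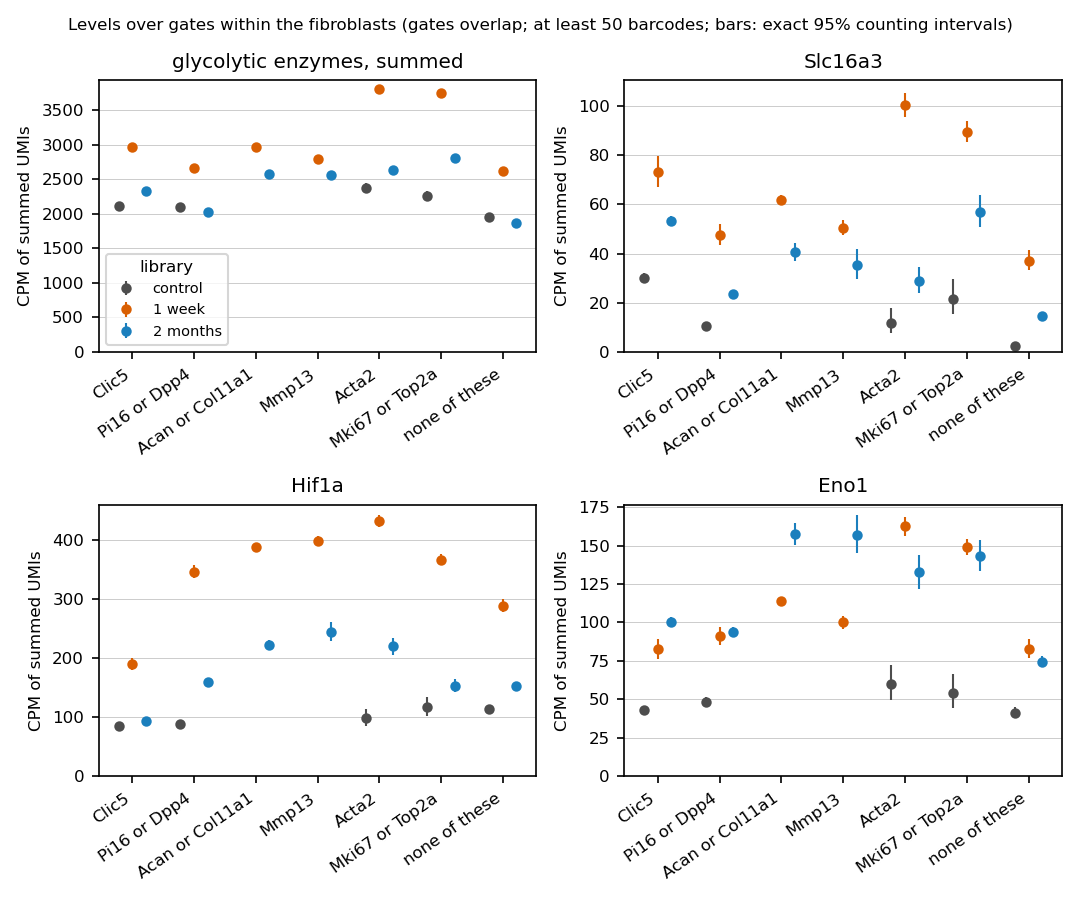
Summed level of the glycolytic enzymes and levels of Slc16a3, Hif1a and Eno1 in CPM, over gates within the fibroblasts, with 1 point per library and exact 95% counting intervals. Slc16a3 was lowest in control barcodes with none of the markers (2.24 CPM) and highest in 1-week barcodes with Acta2 (100.4 CPM); gates with fewer than 50 barcodes are not drawn.

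In the control, Slc16a3 differed widely between gates. It stood at 29.9 (27.9 to 32.0) CPM in Clic5 barcodes, 10.6 (9.19 to 12.1) CPM in barcodes with the progenitor genes Pi16 or Dpp4 and 2.24 (1.54 to 3.17) CPM in barcodes with none of the markers. At 1 week the same gates held 73.2, 47.7 and 37.1 CPM, and at 2 months 53.2, 23.6 and 14.6 CPM. In each of the 3 libraries the Clic5 barcodes had the highest level of these 3 gates. For Hif1a the Clic5 barcodes were the lowest of the drawn gates after the operation, at 1 week, at 190.4 (181 to 200.5) CPM, and at 2 months, at 94.3 (91.5 to 97.1) CPM. Barcodes with Acta2 held Hif1a at 99.5, 432 and 219.9 CPM. The same Acta2 barcodes held Epas1 at 103, 15.5 and 97.6 CPM, so the 1-week library was the low one in that gate. Eno1 at 2 months was 157 (150.3 to 165) CPM with Acan or Col11a1, above the 114 CPM of that gate at 1 week.

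Seen cell by cell, the share of the 15 enzymes in fibroblasts was higher at 1 week more in its upper tail than at its median. The median fibroblast gave 1926, 2228 and 1806 enzyme UMIs per 1000000 in the 3 libraries, whereas the percentile 90 was 2843, 4705 and 3010.2. After each cell was thinned to 3000 UMIs, which left out 121, 20 and 99 shallower fibroblasts, the medians were 2000, 2333 and 1667 and the percentile 90 values 3333, 5000 and 3333 per 1000000. Macrophages had percentile 90 values of 3505, 5079 and 4112 per 1000000 with the full counts and 3667, 5333 and 4333 after thinning. Mural cells and neutrophils had lower shares at 1 week than in the control. From control to 1 week the mural median went from 3308 to 2432 and the percentile 90 from 4992 to 4008. In neutrophils the median went from 3680 to 3274 and the percentile 90 from 6130 to 5329.

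**Figure D3:**
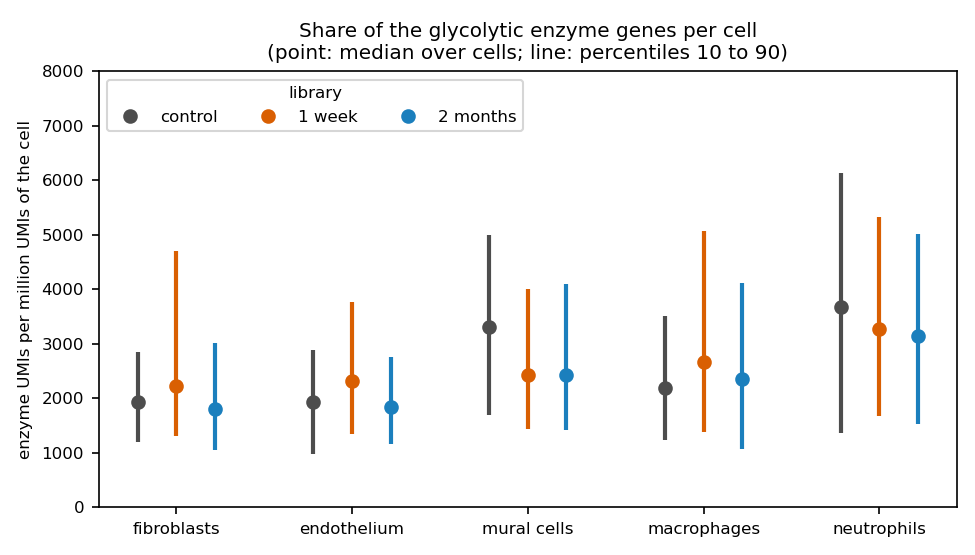
UMIs of the 15 glycolytic enzyme genes per 1000000 UMIs of the cell, by class and library, with the median over cells as a point and percentiles 10 to 90 as a line. The percentile 90 of 1-week fibroblasts is 4705 per 1000000, and the mural median is 3308 per 1000000 in the control.

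Macrophages at 1 week shared the higher Pgk1, Pgam1, Pkm, Hif1a, Slc16a3 and Ddit4 with the fibroblasts and had less Pfkfb3. Of 32 measured members 11 were higher and 3 lower, against 15.0% and 19.4% of all genes, and at 2 months 5 of 31 were higher and 1 lower, against 10.7% and 9.15%. Egln3 and Pdk4 were under 50 UMIs in both comparisons and Aldoc at 2 months. The median log2 ratio of the members was 0.23 at 1 week, beside -0.06 over all genes, and 0.16 at 2 months, beside 0.01. The summed enzymes stood at 2400.2, 3228 and 2725 CPM, ratios of 1.34 (1.33 to 1.36) and 1.14 (1.12 to 1.15).

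Ddit4 in macrophages was at 8.89, 45.1 and 12.9 CPM and 5.07-fold higher (4.13 to 6.27) at 1 week. The glucose transporter Slc2a1 was at 8.46, 25.7 and 14.3 CPM, 3.04-fold higher (2.45 to 3.81) at 1 week and 1.69-fold higher (1.31 to 2.19) at 2 months. Pfkfb3, which is known as an inflammation-responsive activator of glycolysis in macrophages, was at 67.9, 28.6 and 50.3 CPM and 2.37-fold lower (2.14 to 2.64) at 1 week. This was the opposite of its direction in fibroblasts. The enolase Eno2 gave 20, 146 and 32 UMIs, 3.54-fold higher (2.21 to 5.96) at 1 week and 1.53-fold higher (0.849 to 2.82) at 2 months, the latter with an interval that includes 1. Pgk1 was 2.30-fold higher (2.14 to 2.48), Pgam1 1.87-fold higher (1.77 to 1.98) and Hif1a 2.05-fold higher (1.92 to 2.19) at 1 week. Slc16a3 was at 23.0, 45.6 and 46.6 CPM, 1.98-fold higher (1.73 to 2.28) and 2.02-fold higher (1.75 to 2.35). Aldoa, Pkm, Aldoc and Pdk1 were higher by 1.52 to 1.82-fold at 1 week, the last of them under 8 of 12 alternatives, and Hk1 and Epas1 were lower by 1.75 and 1.78-fold.

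At 2 months Eno1 in macrophages was at 77.5, 109 and 162 CPM, 2.08-fold higher (1.92 to 2.26). Slc2a3 was at 3.14, 3.0 and 9.09 CPM, 2.90-fold higher (1.97 to 4.35), and Slc16a1 was 1.52-fold lower (1.18 to 1.97), past 1.5-fold under 10 of 12 alternatives (0.448 to 0.694). The 8 neutrophil markers, all detected, summed in the macrophage gate to 86.7, 742 and 4515 CPM, highest at 2 months, and their part in the value of Slc2a3 was not tested. With barcodes in more than 1 gate or with over 10% haemoglobin UMIs left out, the 2-month ratio of Slc2a3 was 1.37, under the threshold. Among the other lists, 5 of 8 pentose phosphate genes were higher in macrophages at 1 week and none lower, with G6pdx, the entry enzyme of that pathway, 1.86-fold higher (1.61 to 2.16). Vegfa, the angiogenic hypoxia target, had 6.71 CPM in the control and 84.6 CPM at 1 week, 12.6-fold higher (10.0 to 16.0), and was 2.63-fold higher (2.02 to 3.46) at 2 months. Of the 18 other hypoxia targets and regulators measured in macrophages at 1 week, 5 were higher and 4 lower, Adm among the lower at 7.37-fold lower (5.48 to 10.0).

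**Figure D4:**
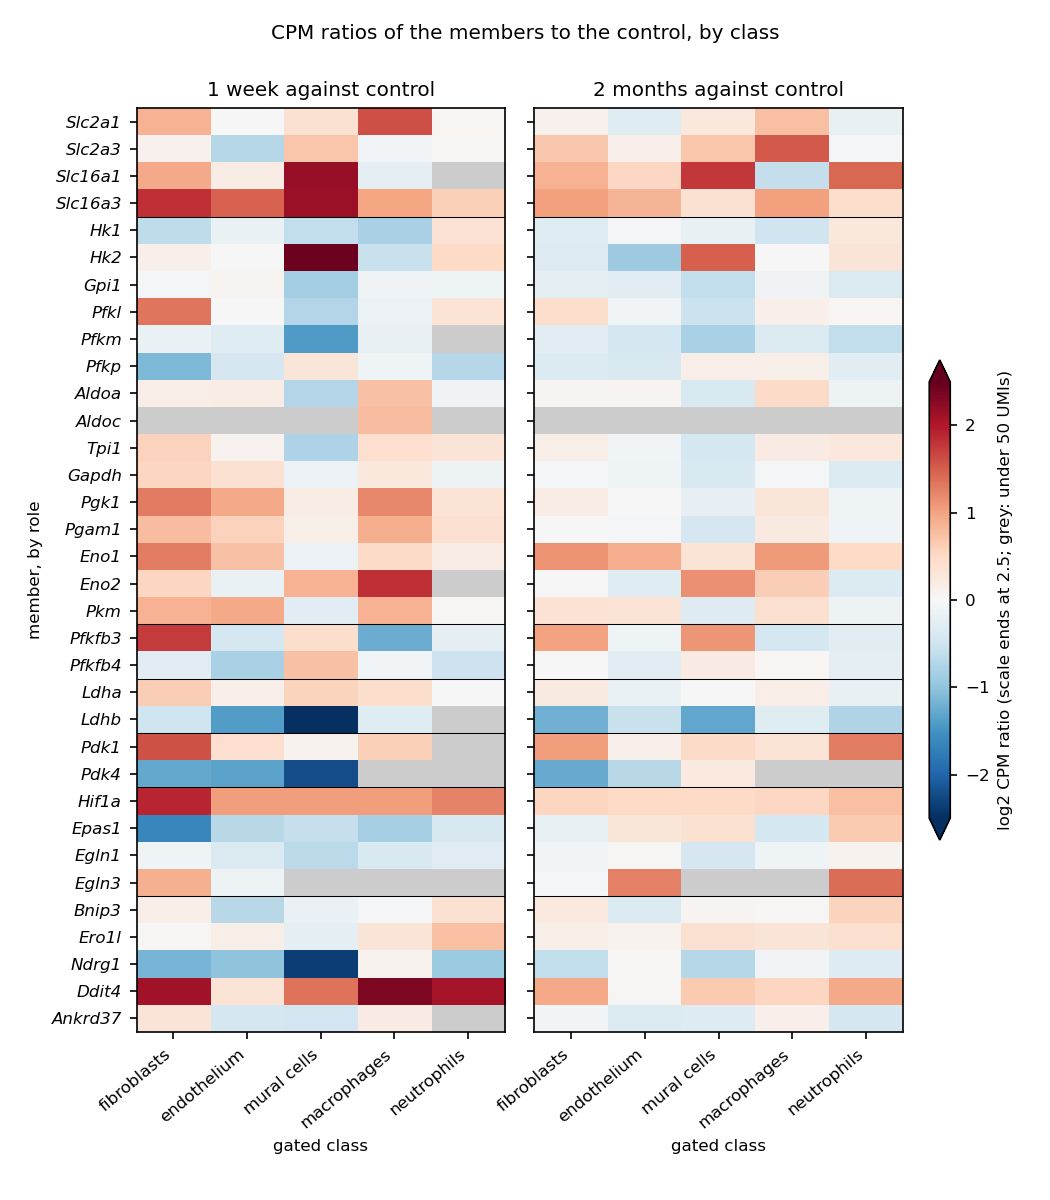
Log2 CPM ratio to the control of each member, by role, in the 5 classes at 1 week (left) and 2 months (right), with red for higher, blue for lower and grey for fewer than 50 UMIs in the 2 sums. Hif1a is at least 2.05-fold higher at 1 week in each of the 5 classes, and Ldhb is 8.10-fold lower in mural cells of the Notch3 gate.

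Endothelium at 1 week had more Slc16a3, Hif1a, Pgk1, Pkm and Eno1 and less of 7 other members. Of 33 measured members 5 were higher and 7 lower, against 15.7% and 15.6% of all genes, and at 2 months 3 were higher and 2 lower, against 11.0% and 6.97%. The median log2 ratio of the members was -0.01 and -0.05, beside 0.02 and 0.06 over all genes, and Aldoc was under 50 UMIs. Over the reported setting and its alternatives, the ratio of the summed enzymes ran from 1.23 to 1.35 at 1 week and from 0.943 to 0.996 at 2 months. Dividing barcodes were 5.35%, 19.8% and 6.05% of the endothelium. Of its barcodes 20.6%, 20.4% and 21.3% carried a Pdgfra UMI, and the fibroblast gene Dcn stood at 3808, 1630.4 and 2444 CPM with them and 572, 355 and 358 CPM without them. Leaving them out gave 4 higher and 8 lower at 1 week and 2 higher and 1 lower at 2 months. This alternative was added after the data were seen, and the share of all genes called in it was not computed.

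Slc16a3 in endothelium was at 7.13, 19.7 and 12.9 CPM, 2.76-fold higher (2.21 to 3.49) at 1 week and 1.81-fold higher (1.42 to 2.33) at 2 months. Without Pdgfra barcodes these ratios were 1.98 (1.44 to 2.77) and 1.20 (0.834 to 1.75). Hif1a was at 170.5, 353 and 239.6 CPM and 2.07-fold higher (1.98 to 2.17) at 1 week, or 1.75 (1.66 to 1.84) without those barcodes. Epas1, which is known to be abundant in endothelium, was at 353, 219 and 439 CPM and 1.62-fold lower (1.55 to 1.68) at 1 week, with a 2-month ratio of 1.24 (1.20 to 1.29). The ratio of Epas1 to Hif1a UMIs was 2.07, 0.620 and 1.83. Pkm was 1.92-fold higher (1.84 to 2.00) and Pgk1 1.94-fold higher (1.81 to 2.07) at 1 week. Eno1 was 1.66-fold higher (1.52 to 1.82) at 1 week and 1.87-fold higher (1.70 to 2.05) at 2 months, or 1.44 (1.29 to 1.62) and 1.78 (1.59 to 2.00) without Pdgfra barcodes.

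The lower members of endothelium at 1 week included Ldhb, at 17.2, 6.49 and 11.7 CPM and 2.65-fold lower (2.15 to 3.26), Pdk4, 2.51-fold lower (1.86 to 3.40), and Ndrg1, at 314, 156 and 321 CPM and 2.02-fold lower (1.93 to 2.11). Bnip3, Epas1, Slc2a3 and Pfkfb4 were lower by 1.61 to 1.76-fold. Without Pdgfra barcodes the ratio was 0.349 (0.218 to 0.554) for Slc2a3 and 0.422 (0.303 to 0.586) for Pfkfb4, further from 1, and a gate on Pecam1 without Pdgfra gave 0.287 (0.195 to 0.416) for Pfkfb4. At 2 months Pdk4 was 1.62-fold lower (1.21 to 2.17). Hk2 was at 38.7, 38.5 and 20.5 CPM and 1.89-fold lower (1.65 to 2.16) at 2 months. Without Pdgfra barcodes Hk2 stood at 8.49, 11.2 and 5.85 CPM, and its 2-month ratio was 0.690 (0.493 to 0.965). Hk2 at 2 months passed 1.5-fold under 10 of 13 alternatives (0.385 to 0.905). Egln3 gave 42, 74 and 139 UMIs and was 2.39-fold higher (1.68 to 3.46) at 2 months, or 3.42 (2.25 to 5.40) without them.

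Among measured members, the highest and the lowest 1-week ratios of the 5 classes, for Hk2 and Ldhb, were those of mural cells in the Notch3 gate. Of 32 measured members 8 were higher and 10 lower at 1 week, against 22.9% and 22.1% of all genes, and at 2 months 6 were higher and 4 lower, against 12.5% and 10.1%. Aldoc and Egln3 were under 50 UMIs, and the median log2 ratio was -0.15 at 1 week and 0.11 at 2 months, beside 0.00 and -0.01 over all genes. The makeup of the gate differed between libraries: the smooth muscle gene Myh11 was at 2793, 516 and 2543 CPM, Acta2 at 16449, 4334 and 10771 CPM and the pericyte gene Rgs5 at 629, 5222 and 2903 CPM. A gate on at least 5 Rgs5 UMIs in place of Notch3 gave 7 members higher and 3 lower at 1 week. Acta2 stood in it at 4623, 4321 and 5698 CPM. The share of all genes called in that gate was not computed. That gate had its own difference between libraries: Prg4, the lubricin gene of lining fibroblasts, stood in it at 51619, 5658 and 9846 CPM, against 9304, 517 and 3885 CPM in the Notch3 gate, and Myh11 at 964, 516 and 1466 CPM. Dividing barcodes were 1.73%, 22.6% and 3.78% of the Notch3 gate. The part of smooth muscle and pericyte shares in the Notch3 values, and of lining RNA in the Rgs5 values, was not tested.

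Ldhb in the Notch3 gate was at 137, 16.9 and 55.8 CPM, 8.10-fold lower (6.78 to 9.72) at 1 week and 2.45-fold lower (2.14 to 2.81) at 2 months. In the Rgs5 gate the ratios were 0.318 (0.241 to 0.419) and 0.508 (0.370 to 0.692). The ratio of Ldha to Ldhb UMIs was 2.14, 25.4 and 5.26 in the Notch3 gate and 7.95, 27.7 and 12.1 in the Rgs5 gate, highest at 1 week in both. Hk2, a hexokinase of muscle, fat and tumours, was at 16.2, 88.3 and 45.3 CPM, 5.46-fold higher (4.39 to 6.85) and 2.80-fold higher (2.19 to 3.6), with Rgs5-gate ratios of 7.31 (4.86 to 11.5) and 3.53 (2.26 to 5.74). The ratio of Hk2 to Hk1 UMIs was 0.359, 3.02 and 1.14. Ndrg1 was at 184, 36.2 and 112 CPM, 5.08-fold lower (4.48 to 5.78) and 1.64-fold lower (1.48 to 1.82), with Rgs5-gate ratios of 0.414 (0.331 to 0.520) and 1.02 (0.818 to 1.29).

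Ddit4 in mural cells was at 109.7, 282 and 173 CPM and 2.58-fold higher (2.36 to 2.82) at 1 week, and 3.6 (3.09 to 4.21) in the Rgs5 gate. Slc16a1 gave 14, 98 and 44 UMIs, 4.53-fold higher (2.58 to 8.60) and 3.39-fold higher (1.82 to 6.69), and its Rgs5-gate ratios were 1.84 (1.02 to 3.62) and 1.96 (1.01 to 4.05). Slc16a3 was 4.40-fold higher (3.12 to 6.36) at 1 week in the Notch3 gate, and its Rgs5-gate ratio was 0.944 (0.721 to 1.25), on the other side of 1. The control Rgs5 gate, high in Prg4, held Slc16a3 at 34.8 CPM, and the control Clic5 fibroblasts held it at 29.9 CPM. Pfkm, the muscle phosphofructokinase subunit, was 2.68-fold lower (1.98 to 3.64) and 1.76-fold lower (1.29 to 2.41) in the Notch3 gate, with Rgs5-gate ratios of 0.799 (0.463 to 1.43) and 1.15 (0.621 to 2.16), and the call was lost there. Pdk4 was 4.63-fold lower (2.48 to 9.18) at 1 week, with an Rgs5-gate ratio of 0.304 (0.119 to 0.772). At 2 months Eno2 was 2.20-fold higher (1.32 to 3.75), Pfkfb3 2.14-fold higher (1.56 to 2.95) and Slc2a3 1.63-fold higher (1.11 to 2.41), with Ddit4 1.58-fold higher (1.43 to 1.75) and Gpi1, the glucose phosphate isomerase, 1.54-fold lower (1.42 to 1.67). In the Rgs5 gate these ratios were 2.46 (1.22 to 5.35) for Eno2, 3.96 (2.38 to 6.97) for Pfkfb3, 1.89 (1.12 to 3.31) for Slc2a3, 2.74 (2.32 to 3.25) for Ddit4 and 0.751 (0.651 to 0.866) for Gpi1, of which Gpi1 was inside 1.5-fold. At 1 week in the Notch3 gate Hif1a, Eno2, Pfkfb4 and Slc2a3 were higher by 1.61 to 2.07-fold, and Aldoa, Egln1, Gpi1, Hk1, Pfkl and Tpi1 lower by 1.54 to 1.84-fold. In the Rgs5 gate none of these 6 lower genes passed 1.5-fold, with ratios of 0.698 to 0.968. The 4 higher genes had Rgs5-gate ratios of 2.52 (2.20 to 2.91) for Hif1a, 1.43 (0.740 to 3.05) for Eno2, 1.58 (1.03 to 2.5) for Pfkfb4 and 1.42 (0.877 to 2.39) for Slc2a3, so Eno2 and Slc2a3 were inside 1.5-fold. Hk1 passed 1.5-fold under 5 of 12 alternatives (0.588 to 0.891) and Egln1 under 8 of 12 alternatives (0.580 to 0.698). The summed enzymes were at 3409.6, 2752 and 2687 CPM, a 1-week ratio of 0.807 (0.792 to 0.823) in the Notch3 gate and 1.03 (1.00 to 1.06) in the Rgs5 gate. Of 18 genes listed for the tricarboxylic acid cycle, 13 were lower in the Notch3 gate at 1 week and 6 at 2 months. Over all genes 22.1% and 10.1% were lower. Idh3b, a subunit of isocitrate dehydrogenase, was 2.49-fold lower (2.24 to 2.77) at 1 week. Mdh1, which is on the list but encodes the cytosolic malate dehydrogenase, was 2.44-fold lower (2.27 to 2.63). This list was not counted in the Rgs5 gate, and the part of the makeup of the Notch3 gate in it was not tested.

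**Figure D5:**
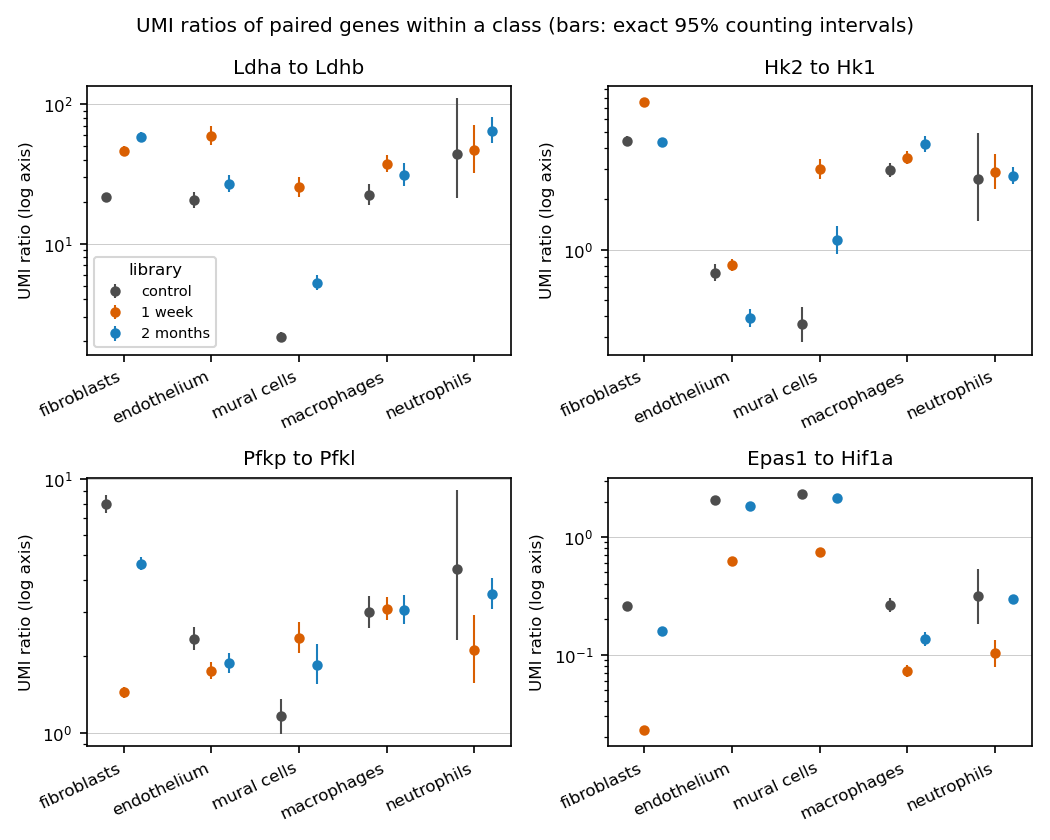
Ratio of UMIs of paired genes within a class and library (log axis), with exact 95% counting intervals, for Ldha to Ldhb, Hk2 to Hk1, Pfkp to Pfkl and Epas1 to Hif1a. The mural ratio of Ldha to Ldhb runs from 2.14 in the control to 25.4 at 1 week, and the fibroblast ratio of Epas1 to Hif1a is lowest at 1 week, at 0.0228. The mural points are those of the Notch3 gate.

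Within a class and library, a ratio of 2 genes does not depend on how the sums are scaled, and only its change between libraries is read here. Epas1 to Hif1a was lower at 1 week than in the control in each of the 5 classes, at 2.32, 0.749 and 2.15 in mural cells, 0.264, 0.0724 and 0.136 in macrophages and 0.317, 0.103 and 0.296 in neutrophils. Pfkp to Pfkl was 7.97, 1.44 and 4.64 in fibroblasts and 1.16, 2.37 and 1.86 in mural cells of the Notch3 gate. In the Rgs5 gate it was 2.29, 2.64 and 2.26 with overlapping intervals, so the higher mural ratio at 1 week was not seen there. In macrophages the same ratio was 2.99, 3.07 and 3.05, with overlapping intervals.

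The neutrophil gate gave the least precise values, since its control held 93 barcodes. Of 25 measured members 4 were higher and 2 lower at 1 week, against 19.5% and 12.0% of all genes, and at 2 months 6 of 32 were higher and 2 lower, against 28.4% and 8.63%. Aldoc and Pdk4 were under 50 UMIs in both comparisons, and Ankrd37, Egln3, Eno2, Ldhb, Pdk1, Pfkm and Slc16a1 at 1 week. The median log2 ratio of the members was 0.06 and -0.06, beside 0.07 and 0.21 over all genes. The 2-month ratios in neutrophils are to be read against that shift of 0.21 on the log2 scale. Over the reported setting and its alternatives, the ratio of the summed enzymes in neutrophils ran from 0.726 to 1.03 at 1 week and from 0.802 to 0.911 at 2 months. Fibroblast markers, all 8 detected, summed there to 9208, 22182 and 14813 CPM, granulocyte precursor genes to 25981, 31821 and 17362 CPM, and 190 barcodes of the 2-month library passed both the fibroblast and the neutrophil gate. Their part in the values was not tested.

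Slc16a3 and Slc2a3 stood higher in neutrophils than in the other 4 classes in each library, at 200.3, 304 and 273 CPM and 119, 122 and 115 CPM. Slc16a3 was 1.52-fold higher (1.27 to 1.83) at 1 week, and Slc2a3 had ratios of 1.02 (0.804 to 1.32) and 0.969 (0.777 to 1.22). Hif1a, which neutrophils are known to need for survival at low oxygen, was at 90.1, 212 and 152 CPM, 2.35-fold higher (1.81 to 3.10) at 1 week and 1.69-fold higher (1.31 to 2.20) at 2 months. Ddit4 gave 12, 212 and 486 UMIs and was 4.21-fold higher (2.36 to 8.27) and 1.92-fold higher (1.09 to 3.73). Ero1l was 1.69-fold higher (1.11 to 2.68), Ndrg1 1.91-fold lower (1.44 to 2.5) and Pfkp 1.64-fold lower (1.17 to 2.26) at 1 week. At 2 months Slc16a1, Epas1, Egln3 and Pdk1 were higher by 1.57 to 2.70-fold and Ldhb and Pfkm lower by 1.54 to 1.68-fold, each on 1 to 20 control UMIs. The intervals of Egln3, Pdk1, Ldhb and Pfkm included a ratio of 1. Slc16a3 at 1 week passed 1.5-fold under 7 of 12 alternatives (1.11 to 1.82), Hif1a under 10 of 12 alternatives (1.47 to 2.55), Ndrg1 under 8 of 12 alternatives (0.436 to 0.994), Ero1l under 9 of 12 alternatives (1.08 to 2.40) and Pfkp under 9 of 12 alternatives (0.425 to 1.15). At 2 months Hif1a passed it under 8 of 12 alternatives (1.07 to 1.80) and Ddit4 under 10 of 12 (1.28 to 3.26). Slc16a1 passed under 12 of 12 (1.65 to 4.43), Epas1 under 7 of 12 (1.20 to 3.47) and Egln3 under 8 of 8 (2.27 to 9.04). Pdk1 passed under 8 of 11 (0.733 to 4.31), Ldhb under 9 of 12 (0.520 to 1.65) and Pfkm under 6 of 11 (0.387 to 0.821). The ranges of Pdk1 and Ldhb reached the other side of 1. With the same barcodes left out as above for macrophages, 4 were higher and 1 lower at 1 week, and 6 higher and none lower at 2 months. The share of all genes called was not computed for this alternative.

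Across the 5 classes, Hif1a was higher at 1 week in each, from 2.05-fold in macrophages to 3.72-fold in fibroblasts. The 8 fibroblast markers also had a higher sum at 1 week in the other classes. Of these, Pdgfra is at 0 in mural cells by the gate. The sum was 7717, 16668 and 6622 CPM in endothelium and 2919, 15844 and 5265 CPM in mural cells. It was 3929, 9308 and 4702 CPM in macrophages and 9208, 22182 and 14813 CPM in neutrophils. In fibroblasts themselves it was 28548, 56097 and 28508 CPM. Single markers did not all follow the sum. In endothelium Col1a1 stood at 816, 4530 and 883 CPM, whereas Dcn stood at 3808, 1630 and 2444 CPM. The part of these markers in the Hif1a and Slc16a3 values was not tested. Slc16a3 was also at least 1.5-fold higher at 1 week in each class of the gates as listed, from 1.52-fold in neutrophils to 4.40-fold in mural cells, though the Rgs5 gate did not show it and the neutrophil value passed under 7 of 12 alternatives. Ddit4 was at least 1.5-fold higher at 1 week in 4 classes and had a ratio of 1.27 (1.20 to 1.33) in endothelium. Ndrg1 was lower at 1 week in 4 classes, with a ratio of 1.06 (0.974 to 1.17) in macrophages. The control library is shared by all these comparisons. Eno1 was at least 1.5-fold higher at 2 months in 3 classes, with ratios of 2.18 (2.09 to 2.29) in fibroblasts, 1.87 (1.70 to 2.05) in endothelium, 2.08 (1.92 to 2.26) in macrophages, 1.40 (1.12 to 1.79) in neutrophils and 1.27 (1.12 to 1.44) in mural cells.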

How the data were processed

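Tissue of 5 to 10 mice per group was digested with 0.25% trypsin for 30 min and then 300 U/mL collagenase I for 30 min, and live cells were sorted, per the labels' protocols. The deposited matrices hold raw UMI counts per gene and barcode from the 10x 3' v3 kit, made with Cell Ranger 6.0.1 on mm10 per the submitters' processing notes, while the file headers name cellranger 5.0.0 for 2 libraries and 5.0.1 for the 2-month one.

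Barcodes needed 500 or more genes and no more than 10% of UMIs from mitochondrial genes, which kept 8099 of 9003, 12316 of 13986 and 9782 of 10799. Of these, Scrublet calls marked 312, 508 and 461, which were kept and left out in an alternative. The libraries shared 61, 63 and 58 barcode sequences with another. Barcodes in at least 2 gates numbered 102, 94 and 320. UMIs were summed per class and library and given per 1000000 (CPM), with 2 gene IDs of the symbol Aldoa summed. CPM has exact Poisson intervals and CPM ratios exact conditional binomial intervals, at 95% and for counting error only. With 1 library per group no test was run. Named in full were all fibroblast members past 1.5-fold, up to 8 members per comparison in each other class by size of ratio, and up to 4 genes of each other list. The members and lists were chosen with earlier results of these data known. The interval method was tested on simulated data. Python 3.11.15, numpy 2.4.6, scipy 1.17.1, pandas 2.3.3, scanpy 1.11.5, R 4.3.3 and edgeR 4.0.16 (TMM factors only) were used. Alternatives covered the filters, doublets, gates, scaling, depth, dividing barcodes and both thresholds.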

Additional observations from a re-analysis of the deposited data

Results flagged for a closer look

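Of the members, 7 stood at least 1.5-fold higher in one class and at least 1.5-fold lower in another under the same comparison with the control. None of these differences between classes was tested, since each class had 1 library per group. Over all genes at 1 week, 15.0% to 22.9% were higher and 12.0% to 22.1% lower, by class. Opposite calls between classes were not counted over all genes, so the 7 are not read as a trait of the members. At 1 week Pfkfb3 was 3.34-fold higher (2.87 to 3.91) in fibroblasts and 2.37-fold lower (2.14 to 2.64) in macrophages. Pfkl was 2.54-fold higher (2.33 to 2.78) in fibroblasts and 1.65-fold lower (1.40 to 1.95) in mural cells of the Notch3 gate, where the Rgs5-gate ratio was 0.968 (0.735 to 1.29). Aldoa was 1.67-fold higher (1.60 to 1.73) in macrophages and 1.66-fold lower (1.58 to 1.74) in mural cells, where the Rgs5-gate ratio was 0.893 (0.828 to 0.963). In the Rgs5 gate the opposite direction of these 2 genes past 1.5-fold was therefore lost. Pfkfb4 was 1.67-fold higher (1.24 to 2.28) in mural cells and 1.76-fold lower (1.36 to 2.26) in endothelium, and Slc2a3 was 1.61-fold higher (1.14 to 2.31) in mural cells and 1.65-fold lower (1.20 to 2.27) in endothelium. Their mural Rgs5-gate ratios were 1.58 (1.03 to 2.5) and 1.42 (0.877 to 2.39), the second inside 1.5-fold, and their endothelial ratios without Pdgfra barcodes were 0.422 (0.303 to 0.586) and 0.349 (0.218 to 0.554).

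At 2 months Hk2 was 2.80-fold higher (2.19 to 3.6) in mural cells and 1.89-fold lower (1.65 to 2.16) in endothelium, where the ratio without Pdgfra barcodes was 0.690 (0.493 to 0.965), inside 1.5-fold. The endothelial value passed 1.5-fold under 10 of 13 alternatives (0.385 to 0.905). Slc16a1 was 1.83-fold higher (1.69 to 1.99) in fibroblasts, 3.39-fold higher (1.82 to 6.69) in mural cells and 2.70-fold higher (1.14 to 8.37) in neutrophils, and 1.52-fold lower (1.18 to 1.97) in macrophages. The levels of smooth muscle and pericyte genes in the mural gate differed between libraries, and their part in the mural values was not tested.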

How the results depend on the processing

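No paired analysis was possible because each group was 1 library. There were 15 alternatives chosen at the start and 1 added after the data were seen. Over these, 241 counts of higher or lower members stayed within 1.5 times the value reported and 47 did not, and the cause was not tested. Shares of all genes were computed only for the reported setting, so the counts below have no background beside them. With a 2-fold threshold the members higher and lower were 2 and 3 in endothelium at 1 week and 1 and 0 at 2 months, 5 and 1 in macrophages at 1 week and 3 and 0 at 2 months, 5 and 4 in mural cells at 1 week, and 2 and 0 in neutrophils at 1 week and 3 and 0 at 2 months. In fibroblasts 8 were higher at 1 week and 4 at 2 months, and 1 was lower in mural cells at 2 months. Thinned to 3000 UMIs, 5 were higher in mural cells at 1 week, 2 higher and 7 lower there at 2 months, 2 lower in macrophages at 2 months, and 0 higher and 1 lower in neutrophils at 1 week. Thinning left out 25 of 93 neutrophils in the control, 193 of 442 at 1 week and 160 of 1141 at 2 months. With each cell weighted equally, 5 and 4 were lower in macrophages at 1 week and 2 months, and 2 higher and 1 lower in neutrophils at 1 week. With no UMI minimum, 2 were lower in macrophages at 2 months, 7 higher and 5 lower in neutrophils at 1 week, and 4 lower at 2 months. Gates on other markers gave 1 lower in endothelium at 2 months, 3 lower in mural cells at 1 week and 0 lower in neutrophils at 2 months. Stricter gates gave 1 lower in endothelium, and 3 higher and 0 lower in neutrophils, at 2 months. Endothelium without Pdgfra had 1 lower at 2 months. Without Scrublet calls, and without dividing barcodes, 2 were lower in macrophages and 1 in neutrophils at 2 months. At 1000 genes and 5% mitochondrial UMIs 3 were higher in mural cells and 1 lower in neutrophils at 2 months. Without barcodes in more than 1 gate or with over 10% haemoglobin UMIs, 1 was lower in neutrophils at 1 week and 0 at 2 months, and without mitochondrial, ribosomal and haemoglobin genes 0 were lower in macrophages at 2 months.

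Of the single ratios, 1202 stayed, 250 moved and 8 whose reported interval excluded 1 turned to the other side of 1. The fibroblast enzyme sum at 2 months was 0.993 with cells weighted equally and 0.993 when thinned. Gates on other markers gave 1.03 for the mural enzyme sum and 0.944 for Slc16a3 at 1 week, 1.15 for Pfkm and 1.02 for Ndrg1 in mural cells at 2 months, and 1.15 for Pfkp in neutrophils at 1 week, which stricter gates put at 1.03. The fibroblast enzyme sum at 1 week ranged from 1.31 to 1.5. The number of barcodes limits mainly the neutrophil control, which held 93. Per barcode, neutrophils were shallowest at 1 week, with a median of 3549.5 UMIs against 5354 in the control and 8084 at 2 months. The spread between mice is not covered by any interval.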
